A study of Mus musculus with 2 samples.

Results

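The TNF superfamily ligands and receptors with roles in cell death were followed in the mouse mammary gland over the first day of involution, when the lactating gland starts to regress. The 10 genes, of 19324 that the array's annotation lists, were Tnfsf12, Tnfsf10 and Ltb among the ligands and Tnfrsf12a, Tnfrsf1a, Tnfrsf1b, Fas, Tnfrsf10b, Tnfrsf21 and Ltbr among the receptors. Every probe set annotated to one of them was taken, which gave 17 of the 45101 on the array. Of these, 15 list a single member gene and 2 list Tnfsf12 together with neighbouring genes.

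Day 1 tissue was mammary gland of female CD1 mice killed 1 day after their pups were removed, and day 0 tissue was gland of such mice on the day of removal. The mice were bought at 6 weeks of age and then mated. Weaning was forced at day 10 of lactation from litters set to 6 pups. Each day had 1 Affymetrix mouse genome array, made from a pool of RNA from 5 mice, so there were 2 arrays and no replicate. Every difference below is a difference between those 2 arrays, without an error, a test or a p-value. The pools were whole gland, in which a change in the number of cells of one type and a change of RNA per cell cannot be told apart.

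TNF superfamily ligands are mostly membrane-bound trimers that cluster their receptors, and many can be cut off the cell surface by proteases. Receptors with an intracellular death domain, here Fas, Tnfrsf1a (the main TNF receptor), Tnfrsf10b (the TRAIL receptor) and Tnfrsf21 (death receptor 6), can assemble a complex that activates caspases. Receptors without one, here Tnfrsf12a (Fn14, the receptor of TWEAK), Tnfrsf1b (the second TNF receptor) and Ltbr (the lymphotoxin beta receptor), bind TRAF adaptor proteins and signal to NF-kappaB and MAP kinases. In the involuting gland milk-producing epithelial cells are lost by cell death while immune cells increase.

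The values were MAS 5 signals, a linear intensity per probe set. Signals below 77.7, the median over both arrays together, were raised to that value, called the floor, and a gene was called measured when its brighter array was above it. Where 1 array was at the floor the ratio is a bound. Each gene was represented by its probe set of highest mean signal, and a gene was counted as higher or lower on day 1 from a difference of 2-fold. The tissue label was checked with the milk protein genes, all 7 of which were measured on both arrays. Their summed signals were 256179.8 on day 1 and 628904.9 on day 0. They included the highest signal of each array, 40090.2 on day 1 and 108570.5 on day 0. The median log2 ratio of the 7 was -1.27 as deposited and ranged from -1.30 to -0.035 over the scalings tried. Median signals were 60.1 for the day 1 array and 94.2 for the day 0 array. For the beta-actin control probe sets, signal at the 3′ end over that at the 5′ end came to 1.51 on day 1 and 2.50 on day 0. The Gapdh controls gave 1.48 on day 1 and 1.52 on day 0, and the part of RNA quality in the members' ratios was not tested. Hybridisation controls are bacterial transcripts that the usual protocol adds in equal amount. The 15 control probe sets used, those below a brightness limit, had a median log2 ratio of day 1 over day 0 of -1.16. They ranged from -2.14 to -0.50. Below, setting these controls equal means setting their median to 0. For a gene above the floor on both arrays, a ratio between -1.16 and 0 as deposited is then above 0.

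Of the 10 genes, 8 were measured through a probe set of their own. Tnfrsf10b stayed below the floor on both days, and Tnfsf12 had only probe sets shared with other genes. Among the 8, Tnfrsf12a, Ltb and Tnfrsf21 passed 2-fold on the higher side and Tnfrsf1b on the lower side. That is 3 of 8 higher, where 10.4% of the 13239 measured genes were, and 1 of 8 lower, where 13.3% were. The median log2 ratio of the 8 genes was 0.88, with a range of -1.77 to 3.41, and that of all measured genes was -0.12. By probe set, 4 of the 12 measured were at least 2-fold higher (9.86% of 22699 measured probe sets with 1 gene) and 1 was at least 2-fold lower (12.6%). With the hybridisation controls set equal, 9 members were measured, of which 6 were higher and 0 lower. Of all measured genes, 48.7% were then higher and 2.28% lower. After median centring 5 of 8 members were higher and 1 lower, where 28% and 5.29% of all genes were. Ribosomal protein scaling gave the same split of 8 members, with 20.6% of all genes higher and 7.57% lower.

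**Figure D1:**
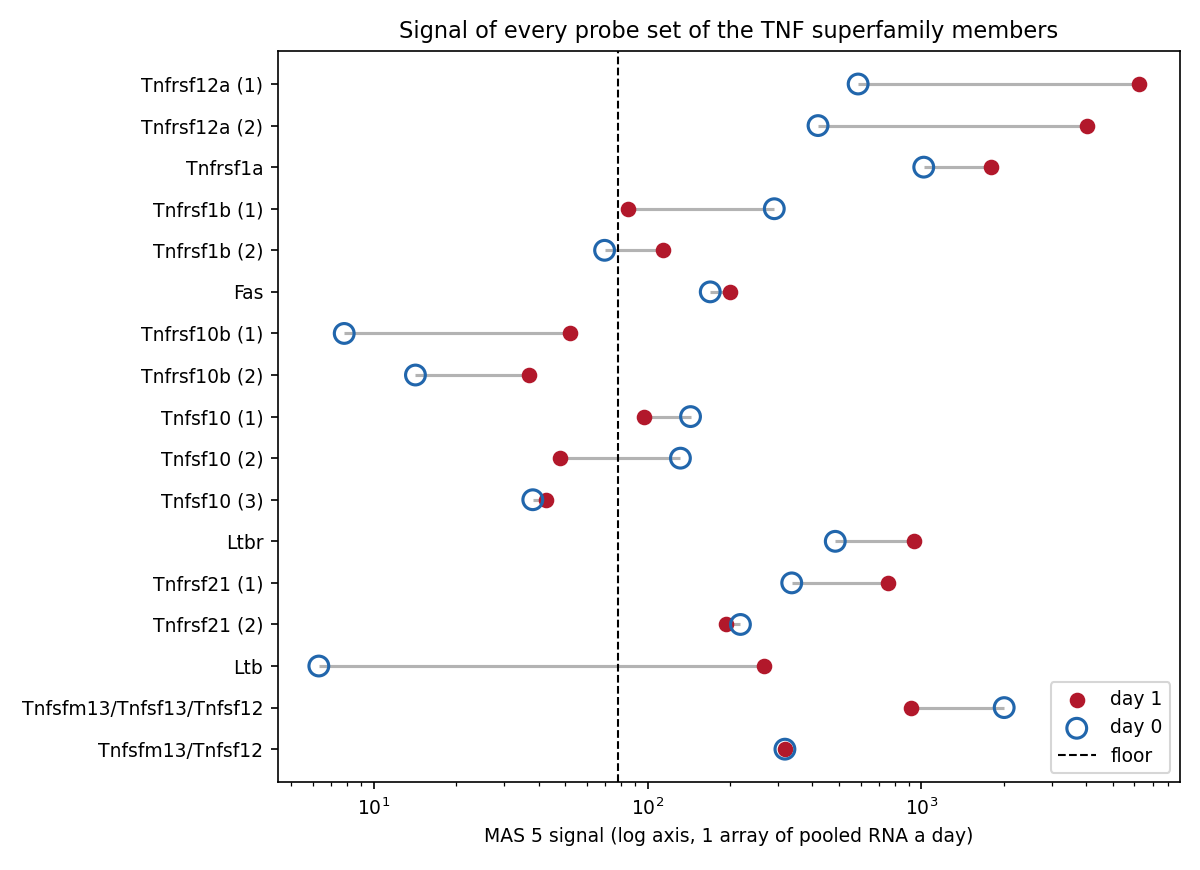
MAS 5 signal (log axis) of the 17 probe sets on day 1 (filled red) and day 0 (open blue), with the floor of 77.7 as a dashed line; numbers in brackets count the probe sets of a gene, brightest first. Both Tnfrsf12a probe sets lie far to the right on day 1, the brightest Tnfrsf1b probe set lies to the left on day 1, and both Tnfrsf10b probe sets stay left of the floor. The circles of the lowest row coincide.

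The upstream sequences of the 4 genes counted as higher or lower are printed because receptors of this family signal to NF-kappaB and AP-1 and the early involuting gland has active Stat3. They are the 250 bases before the annotated start in RefSeq's GRCm38.p6 annotation, 5' to 3' on the gene's strand, at chr17:23677450-23677699 (minus strand) for Tnfrsf12a, chr17:35194257-35194506 (plus strand) for Ltb, chr17:43016305-43016554 (plus strand) for Tnfrsf21 and chr4:145246871-145247120 (minus strand) for Tnfrsf1b. Capitals mark matches on either strand to GGGA and TTCC with any 2 bases between them (NF-kappaB), TGANTCA (AP-1) or TTCNNNGAA (Stat). Tnfrsf12a and Tnfrsf21 have none.
Tnfrsf12a: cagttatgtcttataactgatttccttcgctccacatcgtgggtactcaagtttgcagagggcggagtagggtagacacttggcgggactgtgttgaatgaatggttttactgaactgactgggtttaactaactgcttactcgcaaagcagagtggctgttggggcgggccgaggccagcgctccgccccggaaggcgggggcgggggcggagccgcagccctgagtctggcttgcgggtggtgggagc
Ltb: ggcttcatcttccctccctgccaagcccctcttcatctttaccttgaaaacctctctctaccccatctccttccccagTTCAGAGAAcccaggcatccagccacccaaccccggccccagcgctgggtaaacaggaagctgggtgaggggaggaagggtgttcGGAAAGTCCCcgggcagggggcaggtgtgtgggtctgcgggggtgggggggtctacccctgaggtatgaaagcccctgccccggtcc
Tnfrsf21: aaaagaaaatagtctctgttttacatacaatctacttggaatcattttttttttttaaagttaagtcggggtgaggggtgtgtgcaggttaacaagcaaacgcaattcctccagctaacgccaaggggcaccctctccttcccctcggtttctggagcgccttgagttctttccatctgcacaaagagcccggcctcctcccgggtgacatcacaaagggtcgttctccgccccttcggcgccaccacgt
Tnfrsf1b: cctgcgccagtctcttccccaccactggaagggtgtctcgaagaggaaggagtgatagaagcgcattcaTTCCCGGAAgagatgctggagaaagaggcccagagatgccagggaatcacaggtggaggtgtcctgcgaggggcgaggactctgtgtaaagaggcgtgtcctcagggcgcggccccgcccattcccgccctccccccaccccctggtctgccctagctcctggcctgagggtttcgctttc

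Sequences were found for 8 of the 10 genes. The NF-kappaB motif was in 1 of the 8, Ltb, where GGAAAGTCCC ends 78 bases before the start, and in 1.21% of 32851 upstream regions of the same length. The AP-1 motif was in 1, Fas, and in 6.75% of all regions. The Stat motif was in 4, Fas, Ltb, Tnfrsf1a and Tnfrsf1b, and in 7.02% of all regions. A match describes the sequence and shows no binding.

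Among the receptors without a death domain, Tnfrsf12a differed most. Its brighter probe set (1418571_at) had a signal of 6230.8 on day 1, against 588.1 on day 0. Its other probe set (1418572_x_at) had 4018.5 on day 1, against 419.7 on day 0. Both probe sets were thus far above the floor on both days and higher on day 1 by similar factors, 10.6-fold and 9.57-fold. The second carries a suffix left out in the setting without probe sets shared between transcripts. There the log2 ratio of the first, 3.41, was unchanged. Of the 9768 genes above the floor on both arrays, Tnfrsf12a had the 28th highest ratio. Its log2 ratio of 3.41 lay between 3.29 and 4.57 in the 12 settings of scaling, floor and probe set choice, and between 3.29 and 3.60 above the median of all genes in the 7 scalings. Tnfrsf12a is a small receptor induced by growth factors and injury in many cell types. Of 10 luminal epithelial markers measured, 6 passed 2-fold on the higher side and 2 on the lower side. The summed signal of the list was 85608.2 on day 1 and 42155.1 on day 0. Krt8 gave 23938.2 and 3178.5 of these sums and Krt18 gave 18594.2 and 2945.9. Krt7 and Krt19, keratins of luminal cells, had log2 ratios of 4.15 and 2.92. The transcription factor genes Esr1 (-1.91) and Elf5 (-1.08) were the 2 past 2-fold on the lower side. Epcam (0.29) and Gata3 (-0.13) differed little. Krt7 and Krt19 were named for the largest absolute ratios of the list, and the others after their values were seen. The list median was 2.71, but 1.26 without probe sets shared between transcripts and 1.47 with a floor at the 25th percentile. The part of the luminal markers in the Tnfrsf12a difference was not tested.

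Ltbr, which receives lymphotoxin and LIGHT signals and activates the noncanonical NF-kappaB pathway, had a signal of 941.9 on day 1, against 485.2 on day 0. The ratio was 1.94-fold, just under the 2-fold threshold, and its log2 value of 0.96 ranged from 0.84 to 2.12 over 12 settings. It was past 2-fold in 3 of them, median centring, ribosomal protein scaling and hybridisation control scaling.

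Tnfrsf1b, found mainly on immune and endothelial cells, was the one member counted as lower. Its brighter probe set (1448951_at) had 85.0 on day 1, against 290.5 on day 0, which is 3.42-fold lower. Its dimmer probe set (1418099_at) had 113.5 on day 1 and 69.7 on day 0, at least 1.46-fold higher because the day 0 signal was under the floor. The 2 probe sets thus pointed in opposite directions, and the day 1 signals of both were close to the floor. The log2 ratio of the gene was below 0 in all 12 settings but past 2-fold in only 9. It was -0.61 as the mean of both probe sets and -0.61 with the hybridisation controls set equal, and -0.22 with a floor at the 75th percentile of signals. Markers of the cells that carry this receptor gave no single direction. Macrophage markers had 4 of 9 measured higher and 1 lower, with summed signals of 37333.4 on day 1 and 10383.1 on day 0, of which Cd14 alone gave 29010.6 and 3816.8. Cd68 (1.55), Lyz2 (1.15) and Mrc1 (1.01) were the other higher ones and C1qa (-1.23) the lower one. Adgre1 (-0.83), Aif1 (-0.42), Csf1r (0.40) and C1qb (0.63) were under 2-fold, and the list median was 0.63. Cd14 and Cd68 were named for the largest absolute ratios of the list, and the others after their values were seen. Endothelial markers had 0 of 7 higher and 1 lower, Kdr, with summed signals of 1641.4 on day 1 and 2127.1 on day 0. Their part in the Tnfrsf1b difference was not tested.

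Of the death domain receptors, 1 of the 3 measured was counted as higher. Tnfrsf1a, through which TNF can start either NF-kappaB signalling or cell death, had 1790.9 on day 1, against 1021.2 on day 0, a 1.75-fold higher signal. Fas, the receptor of Fas ligand, had 200.1 on day 1 and 169.5 on day 0, a 1.18-fold difference. These 2 genes had a single probe set each. Both lay above 0 in all settings in which they were measured, from 0.65 to 1.97 log2 for Tnfrsf1a and from 0.21 to 1.40 for Fas, and the highest value in each case came from hybridisation control scaling.

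Tnfrsf21, a receptor expressed in many tissues and studied mostly in neurons and lymphocytes, had 753.3 on day 1, against 336.4 on day 0, at its brighter probe set (1450731_s_at). Its other probe set (1422740_at) had 193.9 on day 1 and 218.5 on day 0. The brighter one was 2.24-fold higher, and the other had a log2 ratio of -0.17, with both above the floor on both days. The brighter probe set carries the suffix for sequences shared between transcripts, and without such probe sets Tnfrsf21 was not counted as higher. As the mean of all its probe sets its log2 ratio was 0.50, also short of 2-fold. Over the 3943 genes for which it could be computed, the log2 ratios of the probe sets of a gene had a pooled SD of 0.56.

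Tnfrsf10b, the receptor through which TRAIL can kill cells, gave signals of 52.2 and 36.8 on day 1 at its 2 probe sets, against 7.8 and 14.2 on day 0. All 4 signals were below the floor, so no ratio is given. With the floor lowered to the 25th percentile of signals (22.3), the first of them was counted as higher.

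**Figure D2:**
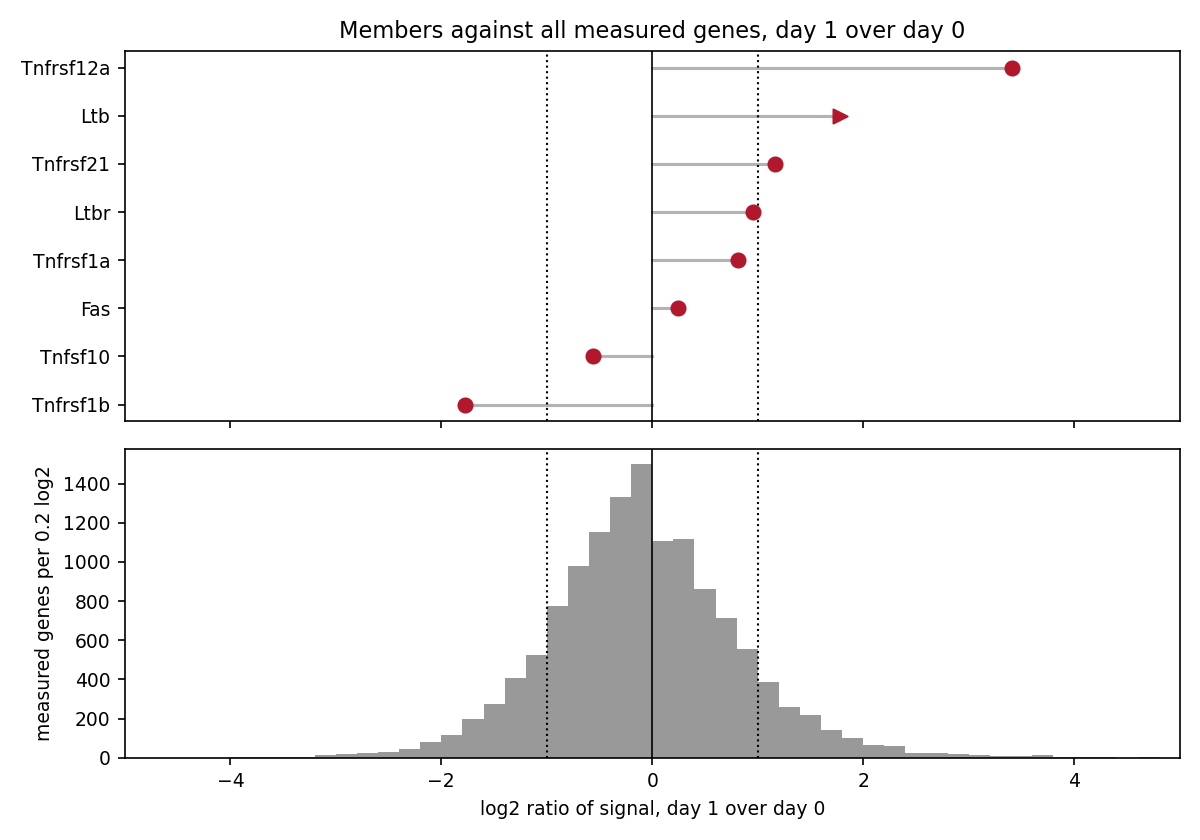
Log2 ratio of signal, day 1 over day 0, of the 8 measured members (upper panel; the triangle is a lower bound) and of all 13239 measured genes in bins of 0.2 (lower panel); dotted lines mark 2-fold. Tnfrsf12a at 3.41 lies in the far right tail, and Fas at 0.24 and Tnfsf10 at -0.57 lie within the bulk of genes.

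Among the ligands, Ltb, the membrane subunit of lymphotoxin made mainly by lymphocytes, had 267.4 on day 1, against 6.3 on day 0. The day 0 signal was under the floor, so the difference was at least 3.44-fold. It had 1 probe set. With a floor at the 75th percentile (250) the log2 bound was 0.10, because the day 1 signal itself was near that level. Of 9 lymphocyte markers measured, 5 passed 2-fold on the higher side and 2 on the lower side, with summed signals of 2707.2 on day 1 and 2002.5 on day 0. The T cell receptor chains Cd3g (at least 3.29-fold) and Cd3d (at least 2.65-fold) were higher, both from day 0 signals under the floor. Cd3e, of the same complex, had a log2 ratio of -1.23 and Cd8a -1.01, and the B cell genes Cd79a (at least 1.16) and Ms4a1 (1.18) were higher, as was Ptprc (1.08). Of the other B cell genes measured, Cd79b (0.79) was higher by less than 2-fold and Ighm (-0.55) was lower by less than 2-fold. Cd3g and Cd3d were named for the largest absolute ratios of the list, and the genes from Cd3e on after their values were seen. Cd4 was below the floor on both days. The part of lymphocyte number in the Ltb difference was not tested.

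Tnfsf10 (TRAIL), the ligand of Tnfrsf10b, was lower on day 1, by less than 2-fold at the probe set that represents it. Its brightest probe set had 97.0 on day 1, against 143.6 on day 0, and its second had 48.1 on day 1, against 131.9 on day 0. Its remaining probe set was below the floor on both days, with 42.6 on day 1 and 38.1 on day 0. The log2 ratios of -0.57 and at most -0.76 pointed the same way, but the ratio was 0.08 after median centring and 0.60 with the hybridisation controls set equal.

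TWEAK, the ligand of Tnfrsf12a, is encoded by Tnfsf12, which lies beside Tnfsf13 (APRIL) and shares with it the readthrough gene Tnfsfm13. No probe set was annotated to Tnfsf12 alone. The probe set listed for Tnfsfm13, Tnfsf13 and Tnfsf12 had 916.5 on day 1, against 2009.0 on day 0, a 2.19-fold lower signal. The probe set listed for Tnfsfm13 and Tnfsf12 had 317.7 on both days. One probe set of this locus was therefore lower and the other equal, and neither can be assigned to TWEAK. The log2 ratio of the first, -1.13, was 0.03 with the hybridisation controls set equal, and relative to the median of all genes it lay between -1.265 and -0.94 in the 7 scalings. Neither shared probe set was higher as deposited, whereas both probe sets of the receptor gene Tnfrsf12a were.

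The rest of the family and the signalling genes below it were described through 7 lists. Of 15 other ligands, 5 were measured, 0 were at least 2-fold higher and 1 was lower. This was Tnf itself, with 138.9 on day 1, against 313.5 on day 0 (log2 ratio -1.17). Cd40lg, Tnfsf13b and Tnfsf4, co-stimulatory or B cell ligands, had signals under the floor on day 1 and log2 ratios of at most -0.58, -0.53 and -0.52. Fasl, the ligand of Fas, was below the floor on both days, with 7.6 on day 1 and 69.7 on day 0. The median of the 5 was -0.53, with -1.13 for a floor at the 25th percentile, -1.09 for a pseudocount of 16 and 0.03 with the hybridisation controls set equal.

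Of 21 other receptors, 14 were measured, with 1 past 2-fold on the higher side and 3 on the lower side. The list median was 0.06 on the log2 scale and below 0 with a floor at the 25th percentile and as the mean of all probe sets (-0.03 and -0.22). Tnfrsf23, a mouse decoy receptor for TRAIL with close paralogs beside it, had 239.0 on day 1, against 6.9 on day 0, at least 3.08-fold higher. Relt (-1.23), Cd40 (at most -1.14, from a day 1 signal under the floor) and Tnfrsf13b (-1.09) were the lower ones.

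Death domain signalling genes had 2 of 10 measured past 2-fold on the higher side and 1 on the lower side, and a median of 0.37 (0.21 to 1.54 over 12 settings). Bid, the protein that caspase-8 cuts to carry the signal to mitochondria, had 339.5 on day 1, against 26.1 on day 0, while its other 2 probe sets were below the floor on both days. Tradd, the adaptor that Tnfrsf1a recruits, had 386.0 on day 1, against 105.5 on day 0, a 3.66-fold higher signal, and its second probe set was higher too (log2 ratio at least 1.51). Cradd, another adaptor, had a log2 ratio of -1.07 and Mlkl, the effector of necroptosis, one of 0.84. Fadd (-0.18), Casp8 (0.76) and Cflar (0.11), which form the caspase-activating complex and were named after their values were seen, were each under 2-fold.

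TRAF and ubiquitin signalling genes mostly differed little, with 1 of 22 past 2-fold on the higher side, 2 on the lower side and a median of 0.14 (0.065 to 1.29). Tnip1, an inhibitor of NF-kappaB signalling, had a log2 ratio of 1.23. Map3k14, the kinase of the noncanonical pathway, had -1.36 and Traf1 at most -1.09, and Tab2 was under 2-fold at -0.94. In the NF-kappaB list 4 of 10 passed 2-fold on the higher side and 1 on the lower side, with a median of 0.59 (0.41 to 1.76). Rela, the main activating subunit, had 2033.8 on day 1, against 668.1 on day 0, a 3.04-fold higher signal, and Bcl3, a nuclear cofactor, was 2.78-fold higher. Nfkbie (at least 2.71-fold) and Relb (at least 2.46-fold) were higher from day 0 signals under the floor, though a dimmer Nfkbie probe set was at most -0.17. Nfkb2 had a log2 ratio of -1.12. Nfkbia, the brightest gene of the list, had 6864.5 on day 1, against 12917.2 on day 0 (-0.91), and Rel had at most -0.64. Ikbkb (0.60), Ikbkg (0.58) and Nfkbib (0.30) were above 0 by less than 2-fold. The genes from Nfkb2 on were named after their values were seen. The summed signal of the list was 12114.2 on day 1 and 15705.8 on day 0. Chuk and Nfkb1 had no probe set of their own.

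Genes that TNF is known to induce gave no common direction. Of 9 measured, 4 passed 2-fold on the higher side and 2 on the lower side, and the median was 0.69 but -0.22 with a floor at the 25th percentile. Ier3, an early response gene, was 5.15-fold higher, with 3075.2 on day 1, against 597.7 on day 0. The chemokine genes Ccl5 (at least 3.76-fold) and Ccl2 (at least 3.20-fold) were higher, and the adhesion molecule gene Icam1 2.59-fold. Sod2 (-1.28) and Mmp9 (at most -1.02), named after their values were seen, were lower, and 6 of the 15 genes, Il6 and Cxcl10 among them, were below the floor on both days.

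Among the 5 genes that cut TNF ligands and receptors from the cell surface or control that step, 2 passed 2-fold on the higher side and 0 on the lower side. Rhbdf2, which brings the protease Adam17 to the cell surface, had 316.8 on day 1, against 44.1 on day 0, at least 4.08-fold higher. Adam17, which sheds TNF and its receptors, had 946.3 on day 1, against 428.8 on day 0 at its brightest probe set (log2 ratio 1.14), and its other 2 had 0.71 and -0.02. Adam10, a related protease, had 2237.7 on day 1, against 1131.7 on day 0 (0.98) at its brightest probe set. Its next 2 were past 2-fold on the higher side, at 1.77 and at least 1.10. Its last probe set was below the floor on both days. Timp3, an inhibitor of Adam17, had 545.0 on day 1, against 1082.3 on day 0 (-0.99), with all 4 probe sets below 0, from -1.25 to -0.35. The list median was 0.98, with 0.34 for a floor at the 75th percentile, 0.61 for the mean of all probe sets and 2.15 with the hybridisation controls set equal.

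**Figure D3:**
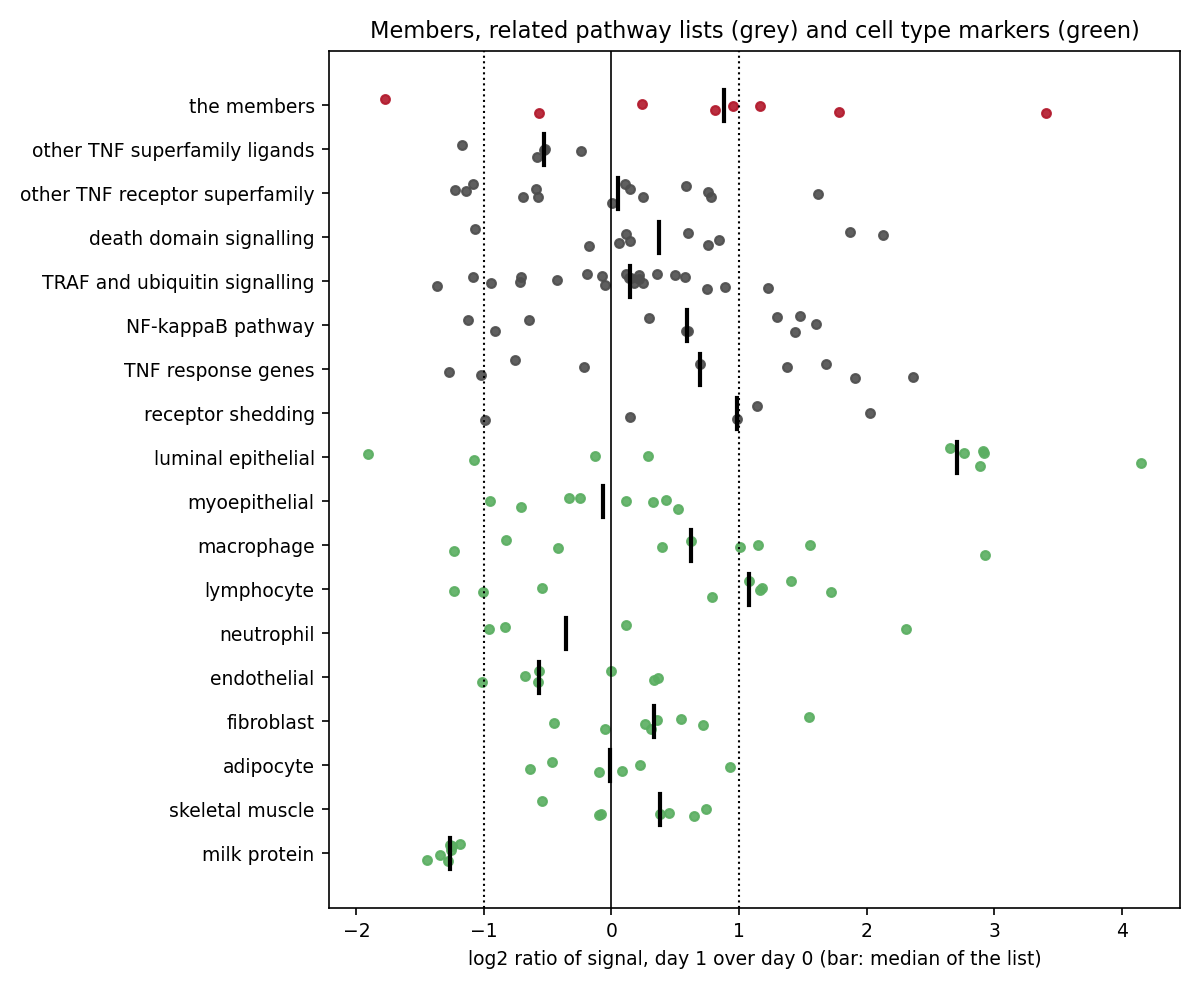
Log2 ratio of signal, day 1 over day 0, of the measured genes of each list (1 point a gene, bounds included, with vertical scatter only to separate points) and the median of each list as a bar; dotted lines mark 2-fold. The median of the members (0.88) lies right of those of the other ligands (-0.53), whose 5 points are all left of 0, and of the other receptors (0.06), which lie on both sides of 0.

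Of the remaining marker lists, myoepithelial, adipocyte and skeletal muscle markers had 0 genes past 2-fold in either direction, of 8, 6 and 7 measured. Fibroblast markers had 1 of 8 higher, Thy1, and 0 lower. Neutrophil markers had 1 of 4 higher, S100a8, and 0 lower, with a median log2 ratio of -0.36. S100a8 was at least 4.97-fold higher, from a day 0 signal under the floor. Csf3r had 45.5 on day 1, against 151.0 on day 0. Its log2 ratio of at most -0.96 is a bound, so it could be past 2-fold on the lower side. Ngp (-0.83) and S100a9 (0.11), picked with their ratios known, fell short of 2-fold. Mpo, Elane and Camp were below the floor on both days.

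**Figure D4:**
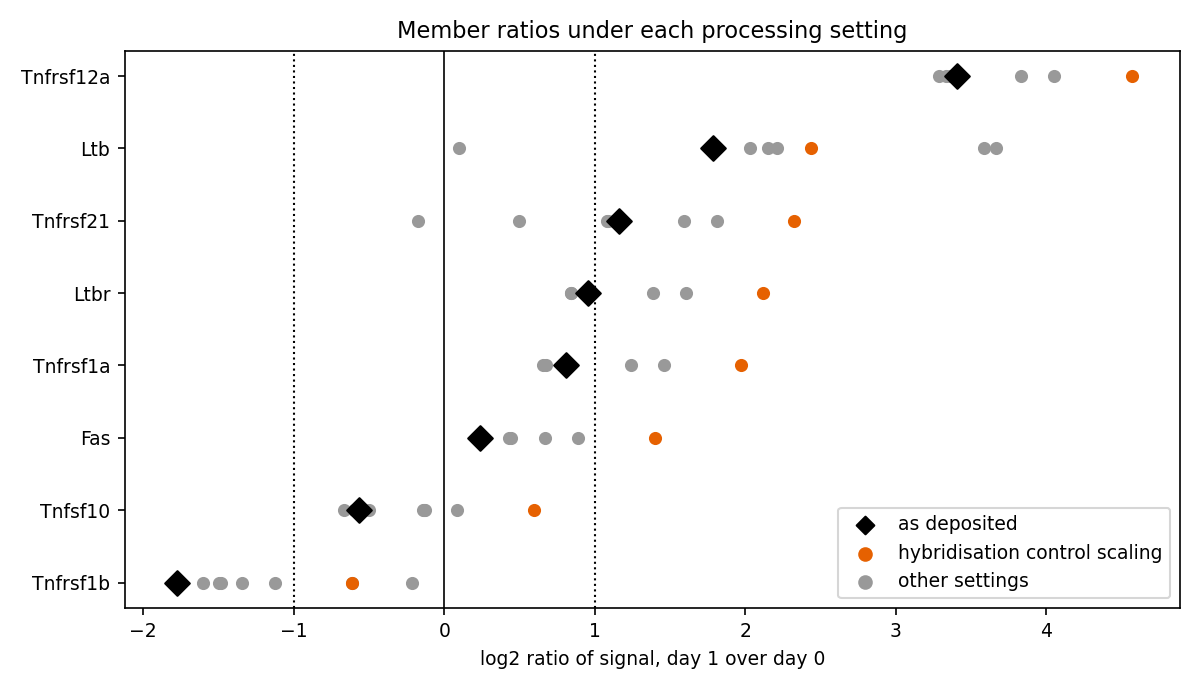
Log2 ratio of signal, day 1 over day 0, of each measured member under the values as deposited (black diamonds), hybridisation control scaling (orange) and the other settings (grey); dotted lines mark 2-fold. Tnfrsf12a stays right of 3 in every setting shown, whereas Ltb, Tnfrsf21, Ltbr, Tnfrsf1a, Fas and Tnfrsf1b lie on both sides of a 2-fold line.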

How the data were processed

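RNA of mammary gland was measured on 1 array for day 1 and 1 for day 0. The deposited intensity values are MAS 5 signals that the authors made with Affymetrix Microarray Suite 5.0, per the labels; both have a mean of 250 after trimming 2% at each end, while the target of that scaling was not stated in the labels. Global scaling carries differences in background or RNA content into every ratio.

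Of 45101 probe sets, 64 controls were left out. Of the others, 34945 list 1 gene, 932 several and 9160 are unnamed here. Symbols of 34741 were updated by gene identifier to RefSeq (GRCm38.p6). Ratios are log2 of day 1 over day 0 after a floor of 77.7. No test was possible. Python 3.11.15, pandas 2.3.3 and statsmodels 0.14.6 were used, and the code was tested on simulated data.

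The members and lists were chosen with earlier results of these data known. All members were named, with up to 4 genes of the largest absolute ratio in each pathway list and up to 2 in each marker list. These listed genes were thus also picked by their values. Listed genes without a probe set of their own were not analysed here. Alternatives were 6 scalings (median, quantile, loess with a span of 0.3, and ribosomal protein, housekeeping or hybridisation control genes set equal), 3 treatments of low signals (other floors, or a pseudocount of 16), 2 choices of probe set (the mean of all, or none shared between transcripts) and thresholds of 1.5-fold and 3-fold. The number of arrays limits the precision.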

Additional observations from a re-analysis of the deposited data

How the results depend on the processing

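Tnfrsf12a was at least 2-fold higher in all 12 settings tried at that threshold, and Ltb in 11, the exception being a floor at the 75th percentile. The number of members counted as higher was 3 of 8 measured as deposited, where 10.4% of all measured genes were higher. After median centring it was 5 of 8 (28% of all genes) and after ribosomal protein scaling 5 of 8 (20.6%). After hybridisation control scaling it was 6 of 9 (48.7%), and at a threshold of 1.5-fold 5 of 8 (20.4%). It was 4 with a floor at the 25th percentile. With a floor at the 75th percentile it was 2 of 6 (10.9%). The count was 2 of 8 as the mean of all probe sets (7.9%), without multi-transcript probe sets (9.56%) and at 3-fold (3.85%). The number counted as lower was 1, and 0 after hybridisation control scaling, with a floor at the 75th percentile and as the mean of all probe sets. The median log2 ratio of the members was 0.88, and 1.53 after median centring, 1.97 after hybridisation control scaling, 0.65 as the mean of all probe sets and 0.52 without multi-transcript probe sets. The median of all measured genes moved by 0.61 after median centring, by 1.09 after hybridisation control scaling, by 0.39 after ribosomal protein scaling, by 0.11 after loess and by 0.18 with a floor at the 75th percentile. Among only those genes past 2-fold in either direction, the higher ones made up 43.8% as deposited and 84.1% after median centring. This share was 73.1% after ribosomal protein scaling, 95.5% after hybridisation control scaling and 58.4% with the floor at the 75th percentile. By probe set, 4 were higher as deposited and 8 after hybridisation control scaling. The count was 6 after median centring, after ribosomal protein scaling and at 1.5-fold, and 5 with a floor at the 25th percentile. With a floor at the 75th percentile and at 3-fold it was 3, and without multi-transcript probe sets 2. The count of lower probe sets was 1, and 0 after hybridisation control scaling and with a floor at the 75th percentile, and 2 with a floor at the 25th percentile, with no floor and a pseudocount of 16, and at 1.5-fold. Among values of at least 2-fold as deposited, the sign turned for Tnfrsf21 without multi-transcript probe sets (-0.17), for the probe set shared by Tnfsfm13, Tnfsf13 and Tnfsf12 after hybridisation control scaling (0.031) and for the lymphocyte median with a floor at the 75th percentile (-0.084). Under at least 1 setting the sign also turned for smaller values, namely Tnfsf10 and the medians of the TNF response genes, the other ligands, the other receptors and the neutrophil, endothelial, myoepithelial, adipocyte and skeletal muscle markers. Scaling settings move every gene by construction; other causes were not tested. No paired analysis was possible because there is 1 array a day. Signals near the floor limit Tnfrsf1b, Tnfsf10, Ltb and Tnfrsf10b.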

Other observations

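The locus of TWEAK and APRIL also holds Tnfsf13os, annotated as an opposite strand transcript. Its brighter probe set had 46.5 on day 1, against 661.4 on day 0, at least 8.51-fold lower from a day 1 signal under the floor, while its other probe set was below the floor on both days (3.4 on day 1 and 13.4 on day 0). It was named after its values were seen. Whether it shares sequence with the neighbouring genes was not tested.

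Tnfrsf11a (RANK), a receptor needed for alveolar development in the mammary gland, had 449.6 on day 1 and 449.1 on day 0, and its ligand Tnfsf11 (RANKL) was below the floor on both days, with 25.9 on day 1 and 6.1 on day 0. Both were named after their values were seen.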
